A study of Mus musculus with 6 samples.

Results

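CT26 is a mouse colorectal carcinoma line that arose in the BALB/c strain. Clones B04 and B64 are single-cell-derived CT26 lines that resisted immune checkpoint blockade (ICB) in mice, and their transcription was compared directly here, clone against clone. The comparison used 4 of the 6 libraries of the series, the 2 of clone B64 (replicates A and B) and the 2 of clone B04 (A and B), chosen by their titles, and covered every gene in the tables. The other 2 libraries come from the parental line and were used to estimate the spread and to give each gene's starting level.

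The groups differ in lineage, and the labels name no treatment for the RNA samples. Per the study's methods, CT26 cells were marked with a ClonTracer barcode, a short DNA tag delivered by a retroviral library, and infected cells were selected with puromycin. After growth as tumours in Balb/c mice, cells were recovered, plated by limiting dilution and grown in RPMI medium. B04 and B64 carry different barcodes, and each is 1 clone, so a difference between them is a difference between 2 clones and says nothing about other resistant clones. The study states that the clones were isolated after ICB treatment, so differences that predate the treatment and differences that arose with it cannot be told apart. The parental libraries come from bulk CT26 cells that had also passed through mice. The titles call the samples tumours, whereas the methods describe RNA from cultured lines, and no ages or doses are given for the RNA samples. The titles do not say whether replicates A and B are separate cultures, so the p-values below may measure technical spread alone.

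Leukocyte and endothelial markers were scarce. Of 24 leukocyte markers, 20 stayed under 1 TPM (transcripts scaled to a common library total) in all 4 clone libraries and 10 were at 0, the T cell gene Cd3e among them. The pan-leukocyte gene Ptprc did not exceed 0.01 TPM. The leukocyte markers summed to 45.9 and 44.3 TPM in B04 and 63.7 and 64.3 TPM in B64. Cd68, a lysosomal gene described below, rose between the clones, whereas the monocyte gene Cd14 did not pass the test (adjusted p = 0.985). Cd74, another of the leukocyte markers, fell from 11.3 and 9.35 TPM in B04 to 3.56 and 4.19 TPM in B64 (adjusted p = 0.00011). The 8 endothelial markers summed to at most 0.2 TPM, and the erythroid markers to between 0.53 and 2.69 TPM in the clones. Fibroblast markers were not scarce, summing to 349 and 356 TPM in B04 and 369 and 346 TPM in B64. Col1a2 alone read 316 to 359 TPM, while Lum was at 0 and Thy1 did not exceed 0.04 TPM. The parental sums were 377 and 355 TPM, and the part of fibroblasts in the collagen results below was not tested. Colon epithelial markers summed to 26.1 and 25.6 TPM in B04 against 46.7 and 49.0 TPM in B64, with Epcam and Cdh1 at no more than 0.06 TPM and Vil1 and Cdx1 at 0. Krt18 and Krt20 made up nearly all of that sum and Lgals4 was near 1 TPM, so most defining colon markers were absent.

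Library totals ranged from 19409204 to 23472012 expected counts. The clones were less alike in fragment length, measured as RSEM gene length minus effective length. It was 271.8 bases in B04 A but 225.2 bases in B04 B, close to the 220.8 and 246.2 bases of the B64 libraries. B04 A thus resembled the parental libraries (277.3 and 276.6 bases), and the difference between B64 and B04 A mixes clone with fragment length. For this reason every gene was also tested in B64 against B04 B alone. A gene is called fragment-matched below when it passed the test (adjusted p under 0.05) against both B04 libraries and again, in the same direction, against B04 B. The match is only partial for B64 B.

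The clones differed at many genes and mostly by small steps. Of 12855 genes tested, 3118 (24.3%) were called, 1690 higher in B64 (13.1%) and 1428 lower (11.1%). Against B04 B alone, 1753 of 12225 genes (14.3%) were called. Fragment-matched genes numbered 1722, with 1024 higher in B64 (7.97% of genes tested) and 698 lower (5.43%). In all 3118 called genes both B64 values lay on one side of both B04 values. The test used these same libraries and largely imposes this, so it adds no support to the calls. The share of such genes among all genes tested was not counted. The median size of a called difference was 0.43 on the log2 scale, and 438 called genes changed at least 2-fold, of which 321 were fragment-matched. Without B04 A 1753 genes were called, without B04 B 1961, without B64 A 1696 and without B64 B 1787.

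Gene length moved with the choice of B04 library. In the shortest of 5 equal bins of genes the median difference was 0.07 on the log2 scale against B04 A and 0.0 against B04 B. In the longest bin it was -0.06 against B04 A and 0.01 against B04 B. The trend with length was therefore present against the long-fragment library and absent against the short-fragment one, as the plot of differences by gene length shows. Across 11271 genes, Spearman's rank correlation of length with difference was -0.14 against B04 A and 0.01 against B04 B, a description over genes of shared libraries.

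**Figure D1:**
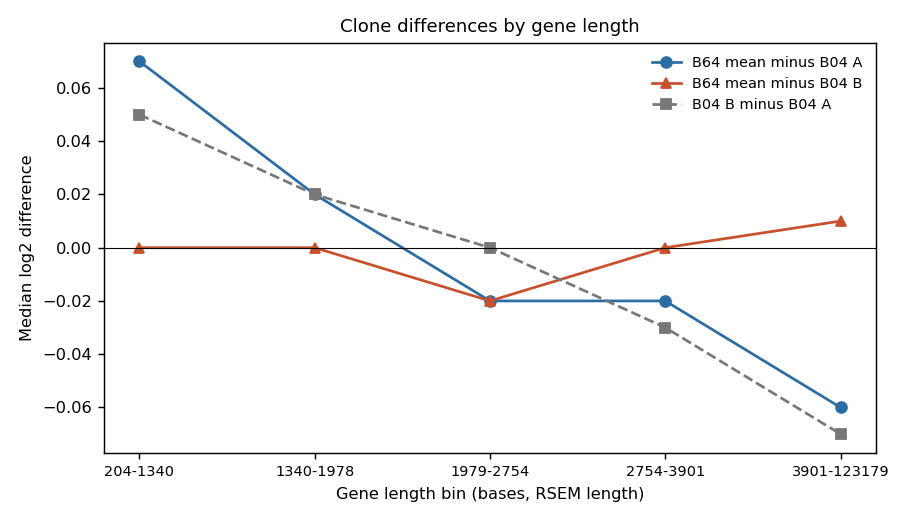
Median log2 difference in normalised counts (vertical axis) in 5 bins of RSEM gene length in bases (horizontal axis), for the mean of the 2 B64 libraries minus B04 A (circles), minus B04 B (triangles) and for B04 B minus B04 A (squares). The line against B04 A falls from 0.07 to -0.06, whereas the line against B04 B stays between -0.02 and 0.01.

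A few genes were on in one clone and at the floor in the other, whatever their parental level (at most 3 counts in each library against at least 30). Arhgap30, a GTPase-activating protein gene of blood cells (ENSMUSG00000048865, chr1:171388954-171410298), had 2911 and 2806 normalised counts in B04 and 2.3 and 2.1 in B64. Against a floor of 3 counts per library it was at least 873-fold higher in B04. The parental line was off as well, at 0 and 2.8, so the gene was on in clone B04 and in neither of the other lines. Elovl7, a fatty acid elongase (chr13:108214404-108285683), read 123 and 138 normalised counts in B04 and 0 in both B64 and both parental libraries, at least 39.9-fold higher in B04. Its adjusted p rose from 1.21e-08 to 0.167 with the replicate letter as a block. Cmah, the enzyme that makes the sialic acid Neu5Gc, was the third gene on in B04 and at the floor in B64, at least 9.97-fold higher in B04. Its parental libraries were above that floor, at 9.5 and 6.5 normalised counts, against 33.7 and 31.6 in B04.

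Fcho1, which starts clathrin-coated pits (chr8:71708387-71725716), was the clearest gene on in B64 and at the floor in B04. It read 0 in both B04 libraries and 430 and 408 normalised counts in B64, at least 145-fold higher, with 42.9 and 23.4 in the parental line. The glycosyltransferase gene B3galnt1 read 0 and 0 in B04 against 41.9 and 55.7 in B64, at least 16.9-fold higher. Its parental values were 86.8 and 98.2, above those of B64, and the difference between B64 and the parental line did not pass the test (adjusted p = 0.14), so the gene was off in B04 alone. Akr1c18, a 20-alpha-hydroxysteroid dehydrogenase that inactivates progesterone, was at least 32.1-fold higher in B64, and its parental libraries read 39.1 and 43.0. The EGF-family ligand gene Nrg2 had 3 counts in each B04 library, the floor itself, so its 14.5-fold was an estimate and not a bound. It read 2.7 and 3.1 normalised counts in B04 and 39.6 and 44.2 in B64 (3.86 ± 0.78), with 33.4 and 40.2 in the parental line. The cilia gene Cfap45 was at least 18.4-fold higher, with 63.4 and 43.1 normalised counts in B64. Cfap45 lost its call without B64 B (adjusted p = 0.27) and with the replicate letter as a block (adjusted p = 0.0673).

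After Fcho1, the largest fragment-matched rises among abundant protein-coding genes were in Ptpn7 and Ppef1. Ptpn7, a tyrosine phosphatase that acts on MAP kinases, rose from 10.9 and 10.2 normalised counts in B04 to 691 and 781 in B64 (log2 fold change 6.12 ± 0.36 SE, adjusted p = 2.9e-63). Ppef1, a calcium-binding serine/threonine phosphatase, read 30.1 and 25.4 in B04 against 1371 and 1279 in B64 (5.57 ± 0.22). The parental values of Ppef1, 583 and 543, lay between the clones, whereas those of Ptpn7, 21.0 and 18.7, lay near B04. Thbs2, a matricellular protein that restrains angiogenesis, read 451 and 366 in B04 and 4139 and 4160 in B64 (3.34 ± 0.1, adjusted p = 1.01e-239). Esm1, the secreted proteoglycan endocan, read 488 and 525 in B04 and 2586 and 3062 in B64 (2.48 ± 0.1), with both parental libraries higher still at 3989 and 4341. Ccr1, a receptor for inflammatory chemokines, read 169 and 126 in B04 and 862 and 784 in B64 (2.48 ± 0.18). Miga1, a mitochondrial fusion factor, the interferon-inducible DNA sensor gene Ifi207, Dynap and the Arf exchange factor gene Psd3 completed the 10 largest rises, at 2.55 to 3.75 on the log2 scale.

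After Arhgap30, the largest falls in B64 among abundant protein-coding genes were in Il2rg and Col3a1. Il2rg, the common gamma chain of the interleukin-2 receptor family, read 591 and 550 in B04 and 5.7 and 10.5 in B64 (-6.13 ± 0.41, adjusted p = 2.68e-48). Its parental values were 269 and 258, so it was higher than parental in B04 and close to absent in B64. Col3a1, a fibrillar collagen of interstitial matrix, read 928 and 836 in B04 and 43.0 and 28.4 in B64 (-4.64 ± 0.22), and Col1a1 fell with it (-2.49 ± 0.14). Ces2g, a carboxylesterase, read 369 and 404 in B04 against 23.8 and 29.4 in B64 (-3.86 ± 0.31). Pax5, the B-lineage transcription factor, read 308 and 293 in B04 and 24.9 and 22.1 in B64 (-3.68 ± 0.34), with 10.5 and 5.6 in the parental line. The complement factor gene Cfb fell by 3.59 on the log2 scale, and log2 fold changes were -2.9 for Padi1, -2.6 for Hacd4 and -2.17 for the chemokine scavenger receptor gene Ackr3. In all of these genes the 2 libraries of a clone lay far closer to each other than to the other clone, as the plot of genes by library shows. They were picked by fold among genes without overlap between the clones, so this closeness was largely set by the choice.

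Type I interferons act through the receptor-bound kinases Jak1 and Tyk2 and the factor ISGF3, which contains Stat2 and Irf9 and binds the interferon-stimulated response element (ISRE) of antiviral genes. Many tumour lines keep a low constitutive activity of this pathway. Of 56 tested interferon-stimulated antiviral effectors, 44 were higher in B64 and 2 lower, and 39 and 2 were fragment-matched. Their median log2 fold change was 0.83 (0.87 against B04 B), beside 0.0 over all genes tested. In each library, relative to the parental mean, the list's median was -0.15 and -0.24 in B04 and 0.69 and 0.62 in B64, so the clones lay on opposite sides of the parental line.

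The promoters of 4 of these effectors that rose and of both that fell are printed because they carry the ISRE-like letters GAAANNGAAA, searched on both strands. Each line gives the 120 bases before the RefSeq start site, 5′ to 3′ on the gene's strand (GRCm38), with matches in capitals; overlapping matches run together.
Isg15 (chr4:156200819-156200938, minus strand): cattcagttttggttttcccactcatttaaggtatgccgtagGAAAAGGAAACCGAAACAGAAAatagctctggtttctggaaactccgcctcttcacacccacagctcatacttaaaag
Ifit1 (chr19:34640769-34640888, plus strand): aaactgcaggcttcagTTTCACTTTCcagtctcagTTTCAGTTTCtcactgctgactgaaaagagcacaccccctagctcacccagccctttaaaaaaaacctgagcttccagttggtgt
Oas1a (chr5:120907526-120907645, minus strand): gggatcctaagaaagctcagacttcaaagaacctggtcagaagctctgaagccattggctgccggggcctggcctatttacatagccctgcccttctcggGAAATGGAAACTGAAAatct
Rsad2 (chr12:26456453-26456572, minus strand): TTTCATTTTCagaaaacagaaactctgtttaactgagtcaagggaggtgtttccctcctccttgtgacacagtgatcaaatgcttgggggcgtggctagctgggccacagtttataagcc
Slfn9 (chr11:82991831-82991950, minus strand): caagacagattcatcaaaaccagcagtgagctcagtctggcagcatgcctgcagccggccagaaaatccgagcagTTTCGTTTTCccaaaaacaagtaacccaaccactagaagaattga
Ifitm2 (chr7:140955962-140956081, minus strand): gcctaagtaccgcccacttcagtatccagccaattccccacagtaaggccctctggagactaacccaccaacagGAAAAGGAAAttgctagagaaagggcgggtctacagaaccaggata
The motif was present in the 300-base promoters (250 before to 50 after the start) of 22 of the 46 antiviral effectors with an entry (47.8%) and in 3.99% of all 27025 genes with one. Genes that were fragment-matched and higher in B64 held it in 7.21% of 804 promoters, and those lower in B64 in 4.23% of 544. A match describes letters only, and the effectors Slfn9 and Ifitm2 held it while being lower in B64.

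The effectors themselves differed widely in size of change. Ifit1, whose protein binds viral RNA lacking the cap's methyl mark, read 186 and 185 normalised counts in B04 and 658 and 652 in B64 (1.82 ± 0.15, adjusted p = 1.18e-29). Usp18, which removes Isg15 from proteins and damps the interferon receptor, read 843 and 675 against 2666 and 2282 (1.7 ± 0.11). Isg15, the ubiquitin-like modifier, read 1270 and 1213 against 2807 and 2858 (1.19 ± 0.08, adjusted p = 8.48e-49). The parental values of all 3 lay between the clones, at 394 and 406, 1700 and 1663, and 1986 and 1966. Ifi44 (1.45 ± 0.09) and Bst2, the virus tether tetherin (0.94 ± 0.06), rose too. Slfn9 and Ifitm2 moved the other way, at -0.48 ± 0.09 and -0.31 ± 0.07. Ifitm1, Ifi44l and Phf11b showed a different pattern, being above the parental mean in both clones by between 0.99 and 1.76 on the log2 scale, and did not pass the test between the clones. Several of these genes have close relatives (Oas1a and Oas1g, Ifit3 and Ifit3b, the Slfn and Ifi200 families), among which the deposited counts divide shared reads, so their individual values are less certain.

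**Figure D2:**
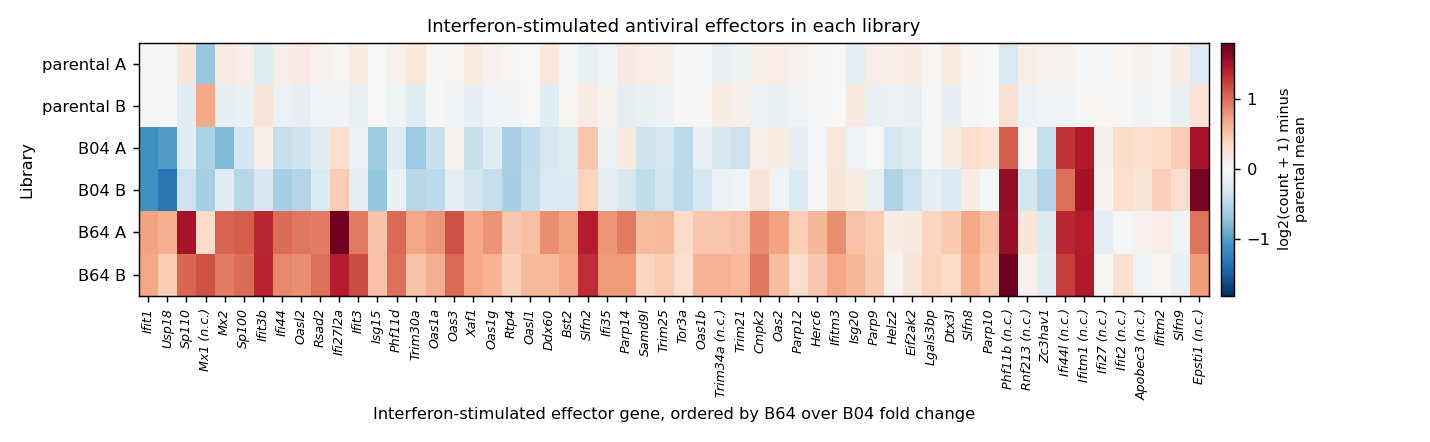
Level of each of the 56 interferon-stimulated effectors (horizontal, ordered by B64 over B04 fold change; n.c., not called) in each library (vertical), as log2(normalised count + 1) minus the parental mean; red is higher and blue lower than parental. Ifit1 runs from -1.1 and -1.11 in B04 to 0.72 and 0.7 in B64, and the right-hand end holds genes above parental in both clones, such as Ifitm1.

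Genes that carry or sense the interferon signal were less uniform. In this list 21 of 47 tested members were higher in B64 and 3 lower (15 and 2 fragment-matched), with a median of 0.3. Irf7, the factor that amplifies type I interferon production, read 959 and 853 in B04 and 2893 and 2696 in B64 (1.62 ± 0.09, adjusted p = 4.75e-67). Stat2 read 588 and 593 against 1041 and 954 (0.75 ± 0.12). The cytoplasmic and nuclear DNA sensor genes of the PYHIN family, Ifi203 (1.36 ± 0.08), Mndal (1.45 ± 0.1) and Ifi204 (0.98 ± 0.11), rose together on chromosome 1. The receptor genes Ifnar1, Ifnar2, Ifngr1 and Ifngr2 and the kinase genes Jak1 and Tyk2 did not pass the test. Irf8 was called against both B04 libraries (1.23 ± 0.32, adjusted p = 0.00121) but not against B04 B alone (adjusted p = 0.0501), nor without B64 A (0.0525) or B64 B (0.0724). Samhd1, which depletes nucleotides during viral replication, fell from 2541 and 2332 to 1634 and 1736 (-0.53 ± 0.09). Irf1, the factor most tied to interferon-gamma, fell by 0.58 on the log2 scale (adjusted p = 0.000878), a call lost without B04 B (adjusted p = 0.0904) or without B64 B (adjusted p = 0.0644).

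Interferon-inducible GTPases, which attack the vacuoles of intracellular pathogens, gave 7 higher and 1 lower of 17 (5 and 0 fragment-matched, median 0.73). Irgm2 read 451 and 398 in B04 and 911 and 858 in B64 (1.06 ± 0.13), and Igtp and Gbp3 changed by 1.16 and 1.05 on the log2 scale. The ISRE-like letters were present in 10 of the 12 promoters of this list that have an entry (83.3%). Without B64 B the list's median was 0.57 and without B64 A it was 0.82.

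MHC class I molecules display peptides to CD8 T cells, and 9 of 25 tested genes of this pathway were higher in B64 and 2 lower (6 and 1 fragment-matched, median 0.2). The class I light chain gene B2m read 6531 and 7092 in B04 and 11073 and 10249 in B64 (0.65 ± 0.06). H2-K1, a classical heavy chain, read 2579 and 3048 against 3965 and 3944 (0.49 ± 0.09). H2-T23, the ligand of the inhibitory receptor NKG2A, showed the larger fold, from 140 and 171 to 445 and 427 (1.49 ± 0.2, adjusted p = 1.58e-12). B2m and these heavy chain genes were higher in B64, whereas H2-M3 (0.29) did not pass the test. The peptide transporter gene Tap2 read 2963 and 2938 in B04 and 2356 and 2405 in B64 (-0.31 ± 0.08). H2 genes are near-identical in sequence, so reads may be divided unevenly among them.

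Ligands and enzymes that restrain or engage immune cells split in both directions. Of 35 tested, 10 were higher in B64 and 8 lower (9 and 5 fragment-matched), with a median of 0.06 against both B04 libraries and -0.04 against B04 B. Pvr, the ligand of TIGIT and CD226, read 2297 and 2297 in B04 and 5391 and 5173 in B64 (1.2 ± 0.07, adjusted p = 2.87e-72). Ptgs2, the inducible cyclooxygenase of prostaglandin synthesis, read 5593 and 5058 against 12751 and 12281 (1.23 ± 0.06, adjusted p = 1.27e-80). Both genes were more than 2-fold higher in B64, as was the haem oxygenase gene Hmox1 (1.15 ± 0.07), and Lgals3 rose by a smaller step (0.64 ± 0.06). Tmem176b, an intracellular cation channel gene that restrains the inflammasome, read 4070 and 4300 in B04 and 1590 and 1670 in B64 (-1.36 ± 0.07). Its neighbour Tmem176a fell by 1.41 on the log2 scale. Anxa1, the glucocorticoid-induced annexin, read 8370 and 8405 in B04 and 6122 and 6270 in B64 (-0.44 ± 0.05), and Ulbp1, a ligand of the NK cell receptor NKG2D, fell as well (-0.61 ± 0.12). Cd274, the PD-L1 gene, read 130 and 115 in B04 and 168 and 181 in B64 and did not pass the test (0.51 ± 0.25, adjusted p = 0.139).

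**Figure D3:**
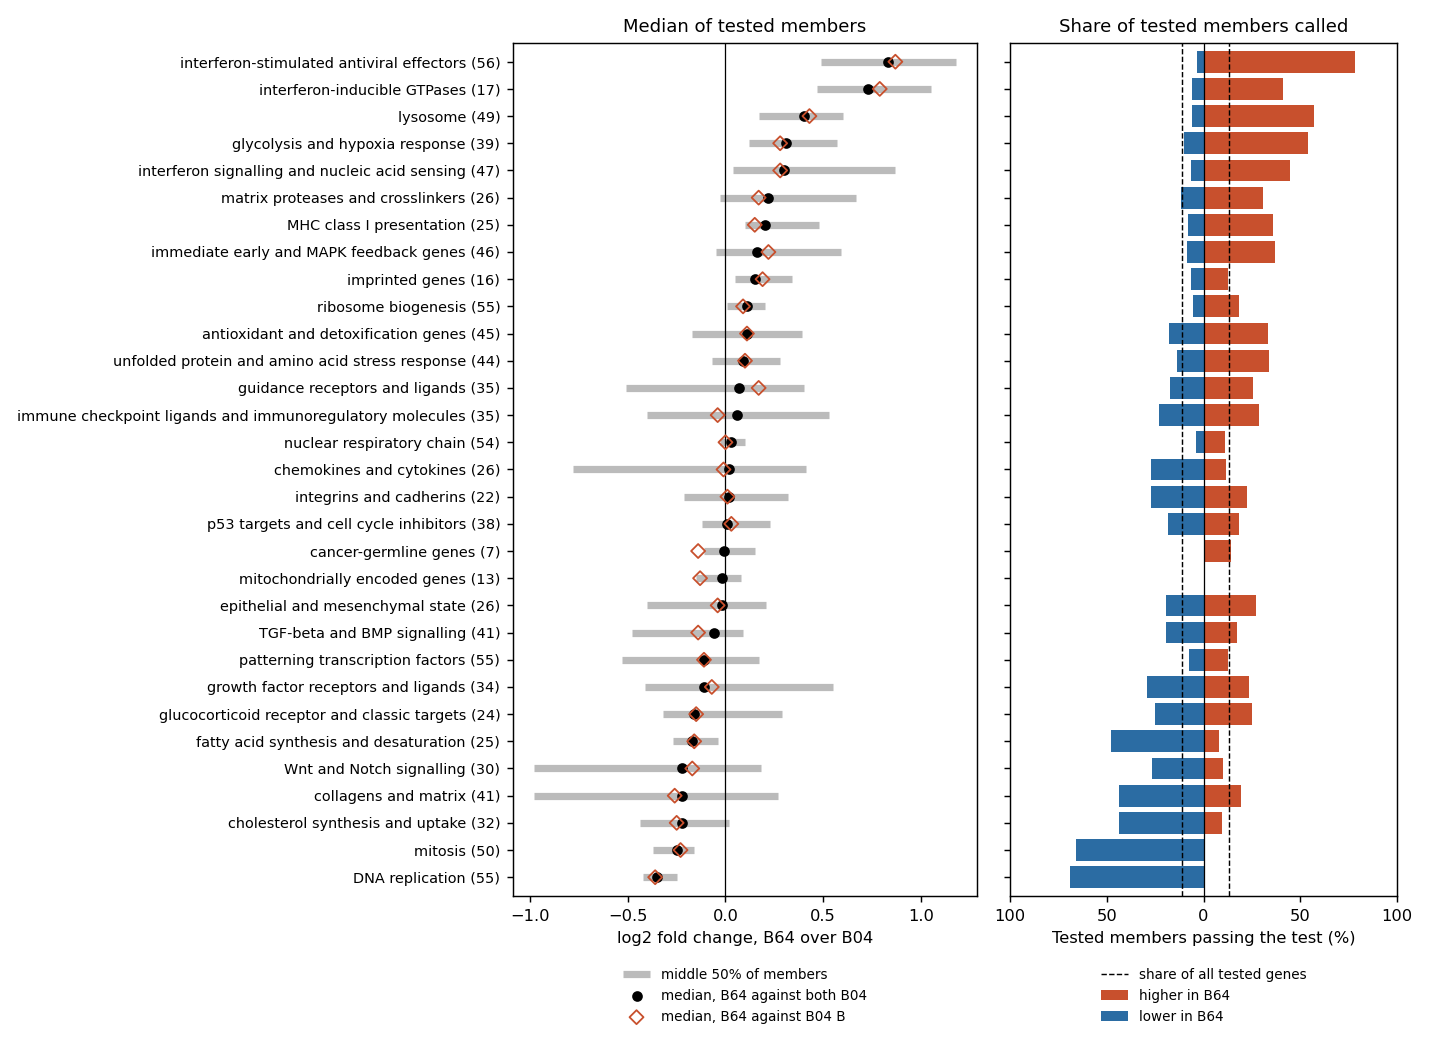
Left, median log2 fold change of each gene list shown (number of tested members in brackets) for B64 against both B04 libraries (dots) and against B04 B (diamonds), with the middle 50% of members as bars; right, percent of tested members called higher (right of 0) or lower (left of 0), with dashed lines at the 13.1% and 11.1% of all tested genes. Interferon-stimulated effectors lie at the top (0.83) and DNA replication at the bottom (-0.35).

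Most DNA replication and mitosis genes were lower in B64. Of 55 tested DNA replication genes 38 were lower and 0 higher in the DESeq2 test (23 fragment-matched), with a median of -0.35. At an unadjusted p under 0.05 the count higher was also 0, and edgeR gave 42 lower and 0 higher. Relative to the parental mean their median was 0.3 and 0.29 in the B04 libraries and -0.03 and -0.02 in the B64 libraries. B64 thus lay near the parental level and B04 above it. Mcm7, a subunit of the replicative helicase, read 9042 and 9095 in B04 and 6176 and 6538 in B64 (-0.51 ± 0.06), beside 6195 and 6223 in the parental line. Tk1, the S-phase thymidine kinase, read 2411 and 2511 against 1465 and 1560 (-0.7 ± 0.08). The ribonucleotide reductase gene Rrm2 (-0.49 ± 0.06) and the maintenance methyltransferase gene Dnmt1 (-0.48 ± 0.06) fell by similar steps. Since a bulk library averages over cells, fewer cycling cells and less of these RNAs per cell cannot be told apart.

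Mitotic genes followed, with 33 of 50 lower and 0 higher in the DESeq2 test (19 fragment-matched, median -0.25). An unadjusted p under 0.05 gave 39 lower and 0 higher, and edgeR gave 38 and 0. Kif11, the spindle motor Eg5, read 3678 and 3425 in B04 and 2210 and 2286 in B64 (-0.66 ± 0.07), and Top2a, which untangles chromosomes, read 11083 and 10294 against 7803 and 7848 (-0.45 ± 0.06). The E2F letters TTTCCCGC were present in 15.2% of 46 replication promoters, in 2.44% of 41 mitosis promoters, in 1.24% of all genes with a promoter entry and in 2.48% of the genes tested that have one. Cell cycle brakes moved in both directions, 7 of 38 tested p53 targets and inhibitors being higher and 7 lower. Each share was 18.4%, beside 13.1% higher and 11.1% lower among all genes tested, so the counts say little about the list as a whole. Cdkn1a, the p21 inhibitor and p53 target, read 6324 and 6045 in B04 and 8962 and 9000 in B64 (0.54 ± 0.06), and Mdm2 (0.78 ± 0.07), Plk2 (0.53 ± 0.06) and Plk3 (1.31 ± 0.1) were also higher. Cdkn2c, an inhibitor of Cdk4 and Cdk6, was lower (-0.81 ± 0.1), as was the pocket protein gene Rbl1 (-0.47 ± 0.07). Among 55 ribosome biogenesis genes 10 were higher (18.2%) and 3 lower (5.45%), beside 13.1% and 11.1% of all genes tested. In this list 4 and 1 were fragment-matched, and its median of 0.11 was 0.07 without B64 B.

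Lipid synthesis genes leaned lower in B64. For cholesterol synthesis and uptake 14 of 32 tested genes were lower and 3 higher (10 and 3 fragment-matched, median -0.22), and for fatty acid synthesis and desaturation 12 of 25 were lower and 2 higher (7 and 2, median -0.17, the same with Elovl7 at its bound and -0.11 without B64 A). Sqle, the epoxidase that commits squalene to sterols, read 5752 and 6053 in B04 and 4104 and 4072 in B64 (-0.53 ± 0.06, adjusted p = 1.82e-15). Acat2, a thiolase of the first step, read 2382 and 2395 against 1520 and 1594 (-0.62 ± 0.08). Fads2, the delta-6 desaturase, read 2811 and 2854 against 1697 and 1803 (-0.69 ± 0.08). In the parental line Sqle was at 3286 and 3400, Acat2 at 1125 and 1162 and Fads2 at 1706 and 1642, each below B04. Insig1 (-0.49 ± 0.08), which retains the sterol sensor in the endoplasmic reticulum, and Cyp51 (-0.44 ± 0.07) were lower too. Npc1 (0.78 ± 0.09) and Npc2 (0.45 ± 0.06), which were higher, export sterol from lysosomes and do not synthesise it. The sterol element letters TCACNCCAC were present in 1 of 25 cholesterol promoters (4.0%), beside 1.44% of all genes with an entry.

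Lysosomal genes leaned higher in B64. Of 49 tested, 28 were higher and 3 lower (25 and 1 fragment-matched), with a median of 0.4, and the list's median relative to the parental mean was -0.07 and -0.12 in B04 and 0.2 and 0.19 in B64. Cd68, a lysosomal membrane glycoprotein best known from macrophages, read 187 and 170 in B04 and 729 and 646 in B64 (1.94 ± 0.17), while the macrophage genes Adgre1, Fcgr1 and Csf1r did not exceed 0.07 TPM in any clone library. Ctsl, a cysteine protease, read 58050 and 60212 against 98053 and 92830 (0.69 ± 0.05), and Grn, the progranulin gene, read 7146 and 6670 against 12657 and 12080 (0.84 ± 0.06). Psap, the precursor of the saposins, was higher as well (0.6 ± 0.06). Tfeb, a transcriptional activator of lysosome genes, was lower, from 375 and 431 to 257 and 231 (-0.72 ± 0.18, adjusted p = 0.000612), a call lost without B04 B (adjusted p = 0.0783) or without B64 B (0.0631).

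Glycolysis and hypoxia genes also leaned higher, with 21 of 39 tested higher and 4 lower (18 and 3 fragment-matched, median 0.31). Ero1l, an endoplasmic reticulum oxidase induced by low oxygen, read 10533 and 10238 in B04 and 21950 and 21825 in B64 (1.08 ± 0.05, adjusted p = 9.41e-101). Eno2, an enolase, read 638 and 670 against 1632 and 1667 (1.34 ± 0.1), the aldolase gene Aldoa 12819 and 13323 against 19766 and 21122 (0.65 ± 0.05). Slc2a1, the GLUT1 glucose transporter, changed by 0.77 ± 0.07. Vhl, whose product marks hypoxia-inducible factors for degradation, was lower in B64, at 558 and 590 in B04 and 385 and 362 in B64 (-0.62 ± 0.14), but its call was lost by limma on log2(TPM + 1). Of 54 nuclear-encoded respiratory chain genes 6 were higher (11.1%) and 2 lower (3.7%), beside 13.1% and 11.1% of all genes tested. None of the 13 mitochondrially encoded genes was called by DESeq2, by edgeR or at an unadjusted p under 0.05 (0 of 13 each).

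Stress programmes gave smaller shifts. The unfolded protein and amino acid response had 15 of 44 genes higher and 6 lower (10 and 3 fragment-matched, median 0.09). Among those higher were the chaperone gene Hsp90b1 (0.47 ± 0.05), the sensor kinase gene Ern1 (0.69 ± 0.06) and Atf6 (0.55 ± 0.06), whereas the chaperone gene Dnajb9 (0.33) and the kinase gene Eif2ak4 (-0.02) did not pass the test. Fgf21, a hormone induced by amino acid stress, read 88.5 and 116 in B04 and 12.5 and 12.6 in B64 (-3.03 ± 0.45), and the mitochondrial enzyme gene Pck2 was lower too (-0.37 ± 0.07). Antioxidant genes had 15 of 45 higher and 8 lower (13 and 8), with Gstp1 at 9800 and 9378 in B04 and 14504 and 14849 in B64 (0.61 ± 0.06) but Gstm1 at 2020 and 1857 against 1250 and 1241 (-0.64 ± 0.09).

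Extracellular matrix genes leaned lower, with 18 of 41 tested lower and 8 higher (12 and 7 fragment-matched, median -0.22). The fibrillar collagen genes Col1a1 and Col3a1 described above fell with Fbln2, a basement membrane protein, at 3510 and 3537 in B04 and 1518 and 1522 in B64 (-1.21 ± 0.07, adjusted p = 3.72e-61). Fibrillar collagen did not fall as a whole. Col1a2 was slightly higher in B64 (0.2 ± 0.05, adjusted p = 0.0003), at 316 and 323 TPM in B04 and 359 and 334 TPM in B64. In B04, Col1a1 read 10.5 and 9.53 TPM and Col3a1 9.25 and 11.2 TPM. Tnxb, the tenascin that organises collagen, read 1144 and 947 against 462 and 464 (-1.18 ± 0.14), with 232 and 231 in the parental line. Spp1, the adhesive cytokine osteopontin, moved up from 40472 and 39572 to 66421 and 66885 (0.74 ± 0.05), as did Col18a1 (0.59 ± 0.09) and, most of all, Thbs2. Matrix proteases, inhibitors and crosslinkers had 8 of 26 higher against 3 lower (7 and 1 fragment-matched), with a median of 0.22 that was 0.14 without B64 B. Plaur, the urokinase receptor, read 1158 and 1310 in B04 and 2598 and 2642 in B64 (1.09 ± 0.09). Mmp14 (0.72 ± 0.09) and Timp1 (0.82 ± 0.08) rose by less than 2-fold. All 3 of these genes were lower in B04 than in the parental line, Plaur by 1.28 on the log2 scale.

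Integrin subunit genes moved in both directions. The laminin receptor subunit gene Itga6 read 4524 and 4549 in B04 and 7935 and 8053 in B64 (0.82 ± 0.06), whereas its partner Itgb4 read 1252 and 1096 against 548 and 541 (-1.11 ± 0.12). Itga3, another laminin-binding subunit, was lower (-0.91 ± 0.07). In the whole list 5 of 22 tested genes were higher (22.7%) and 6 lower (27.3%), beside 13.1% and 11.1% of all genes tested (5 and 3 fragment-matched). Of 26 epithelial and mesenchymal markers 7 were higher and 5 lower (3 and 5). Krt20, an intestinal keratin, read 286 and 302 in B04 and 786 and 817 in B64 (1.45 ± 0.14), while Vim, the mesenchymal intermediate filament, read 81341 and 75476 against 48892 and 51528 (-0.64 ± 0.06). Colon epithelial markers as a list were described above.

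The EGF receptor ligand genes Areg and Ereg rose in B64. Areg, encoding amphiregulin, read 307 and 294 in B04 and 1288 and 1123 in B64 (2.0 ± 0.13, adjusted p = 4e-50), and Ereg, encoding epiregulin, 565 and 547 against 1180 and 1283 (1.15 ± 0.11). The parental values were 488 and 488 for Areg and 1272 and 1148 for Ereg, so Ereg in B64 was near the parental values. Among immediate early and MAPK feedback genes 17 of 46 tested were higher and 4 lower (13 and 2 fragment-matched, median 0.16). Dusp5, a phosphatase that silences nuclear ERK, read 298 and 315 in B04 and 794 and 980 in B64 (1.53 ± 0.15). The AP-1 subunit genes Fosl1 (0.99 ± 0.08) and Junb (1.01 ± 0.09) and the feedback inhibitor gene Spry4 (0.95 ± 0.08) rose about 2-fold. Ccn1 and Ccn2, matricellular growth factors, were lower, at 1800 and 1874 against 860 and 840 (-1.11 ± 0.09) and 303 and 349 against 88.3 and 104 (-1.76 ± 0.23). The whole list of growth factors and receptors had 8 of 34 higher (23.5%) and 10 lower (29.4%), beside 13.1% and 11.1% of all genes tested.

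TGF-beta family genes changed in both directions, ligands included. Tgfb3 read 1580 and 1503 in B04 and 350 and 418 in B64 (-2.0 ± 0.13, adjusted p = 1.69e-54), with 295 and 291 in the parental line, so this ligand was highest in B04. Tgfbr2, the type II receptor gene, was lower in B64 (-0.53 ± 0.11). Bmp2 read 9.1 and 7.1 in B04 and 84.9 and 104 in B64 (3.53 ± 0.49), near the parental 95.4 and 127. The antagonist genes Grem1, which binds BMPs, and Fst, which binds activin, were both higher, Grem1 from 3176 and 3165 to 7590 and 7723 (1.27 ± 0.06, adjusted p = 4.7e-92) and Fst by 1.14 ± 0.21. In total 7 of 41 tested genes were higher (17.1%) and 8 lower (19.5%), with 4 and 4 fragment-matched. Among all genes tested the shares were 13.1% and 11.1%, so these counts say little about the family as a whole.

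Wnt, Notch and guidance genes were changed in both directions. In the Wnt and Notch list 3 of 30 were higher and 8 lower (2 and 4 fragment-matched, median -0.22). The receptor genes Fzd2 (-1.2 ± 0.16) and Notch1 (-0.93 ± 0.15) and the Notch target Nrarp (-0.9 ± 0.18) were lower in B64. Guidance genes had 9 of 35 higher (25.7%) and 6 lower (17.1%), beside 13.1% and 11.1% of all genes tested (5 and 6 fragment-matched). Epha2 read 5223 and 5595 in B04 and 8161 and 8887 in B64 (0.66 ± 0.06), while Slit3 read 3185 and 2969 against 1415 and 1512 (-1.07 ± 0.08) and Ephb3 361 and 310 against 129 and 139 (-1.33 ± 0.22). Patterning transcription factors had 7 of 55 higher (12.7%) and 4 lower (7.27%), shares no larger than those of all genes tested. Sox4 read 163 and 139 in B04 and 467 and 448 in B64 (1.59 ± 0.16), below the parental 773 and 765, and Sox9 524 and 544 against 1300 and 1196 (1.23 ± 0.11).

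Of 26 tested chemokine and cytokine genes 3 were higher (11.5%) and 7 lower (26.9%), beside 13.1% and 11.1% of all genes tested. The other 16 were not called, and 2 and 6 were fragment-matched. The list's median was 0.02, with a range of -0.07 without B64 A to 0.12 without B64 B. Ccl9, a myeloid chemokine, read 112 and 129 in B04 and 21.5 and 23.1 in B64 (-2.43 ± 0.42), but its call was lost by limma on log2(TPM + 0.1). The receptor genes Il17ra (-0.93 ± 0.14) and Il1rap (-1.44 ± 0.31) were lower in B64 like Il2rg, and the gp130 cytokine gene Clcf1 (1.07 ± 0.19) was higher. The glucocorticoid list had 6 of 24 higher and 6 lower (3 and 5). Nr3c1, the receptor gene itself, read 3637 and 3463 in B04 and 2896 and 2829 in B64 (-0.31 ± 0.07, adjusted p = 0.000242; 0.0471 against B04 B), a call lost with fragment-length class as a block (adjusted p = 0.0527) and by limma on log2(TPM + 1) (0.0565). The co-chaperone gene Fkbp5, a direct target, was lower (-0.53 ± 0.08), whereas Errfi1 (0.83 ± 0.09) and Mt1 (0.48 ± 0.05) were higher. Of 16 imprinted genes 2 were higher (12.5%) and 1 lower (6.25%), shares no larger than those of all genes tested. Of 7 cancer-germline genes only Rhox5 was called (0.3 ± 0.06).

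A further 1396 called genes were not fragment-matched. Among those with the smallest adjusted p were Ddit4 (0.37 ± 0.08) and Mtln (0.5 ± 0.12) among the higher and Spata13 (-1.03 ± 0.23), Cd74 (-1.35 ± 0.31) and Elmo2 (-0.41 ± 0.09) among the lower. Each kept its direction against B04 B, where adjusted p lay between 0.0522 and 0.0722. Ddit4, an inhibitor of mTORC1, read 2571 in B04 A but 3012 in B04 B, against 3554 and 3637 in B64. Slurp1, a secreted modulator of acetylcholine receptors, read 63.8 and 66.2 in B04 and 14.7 and 28.4 in B64 (-1.59 ± 0.55, adjusted p = 0.0202) and was not called against B04 B (adjusted p = 0.233), without B04 B (0.23) or without B64 A (0.319).

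Differences were unevenly spread along the genome. On chromosome 3, 188 of 543 genes (34.6%) were higher in B64 and 44 lower, with a median of 0.18 against both B04 libraries and against B04 B. On chromosome 15 the balance was opposite, 111 of 451 genes (24.6%) being lower and 42 higher (median -0.12). Other chromosome medians lay within 0.06 of 0. In windows of 50 neighbouring genes, 6 of 215 had a median beyond 0.2 in size, 4 of them on chromosome 3 and 2 on chromosome 6, while the middle 50% of window medians ran from -0.04 to 0.04.

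The highest window, at chr3:35892105-55137322, had a median of 0.35 with 22 genes higher and 2 lower. Relative to the parental line its median was -0.37 and -0.44 in the B04 libraries and -0.06 and -0.05 in B64, so B04 was the clone farther from parental. Nhlrc3 (0.93 ± 0.13), Ufm1 (0.62 ± 0.09) and the phospholipid-binding gene Anxa5 (0.39 ± 0.05) had the smallest adjusted p among its members. The lowest window, at chr6:90386807-113377883, had a median of -0.345 with 28 genes lower and 1 higher. There the parental-relative median was -0.01 and -0.12 in B04 and -0.46 and -0.47 in B64, so B64 was the farther clone. Fbln2, the mitochondrial enzyme gene Suclg2 (-0.8 ± 0.08) and the transcription factor gene Foxp1 (-0.67 ± 0.08) were its members with the smallest adjusted p. Further along it, chr6:125349362-137654876 had a median of 0.203, with B64 at 0.25 and 0.26 above the parental line and B04 at -0.05 and -0.08. No DNA copy number was measured, and its part in these regional differences was not tested.

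**Figure D4:**
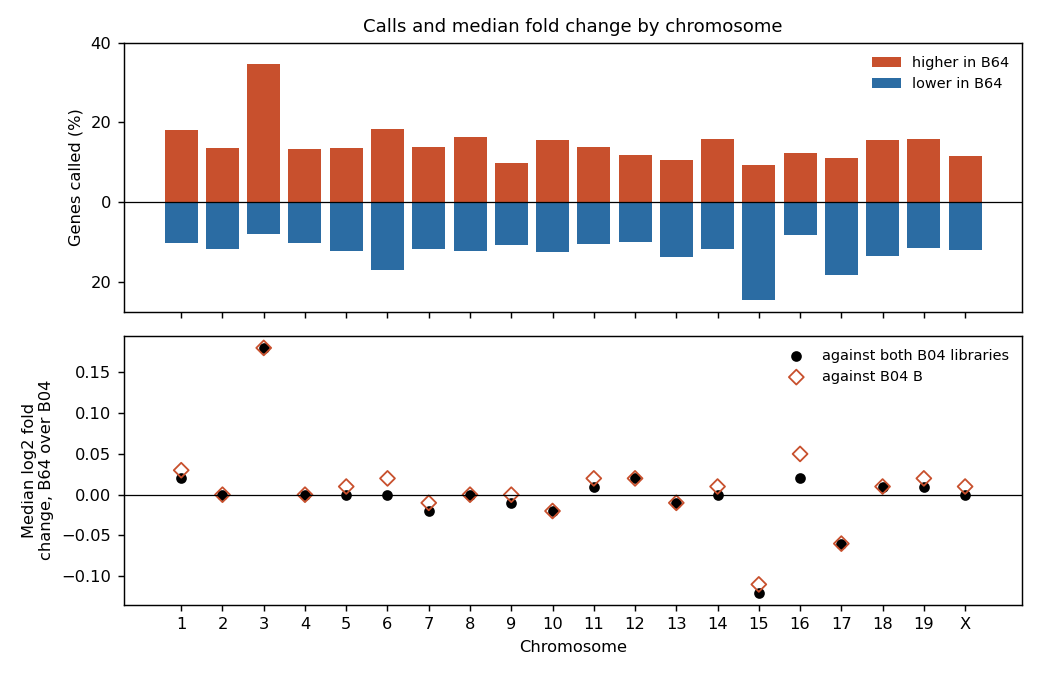
Top, percent of genes on each chromosome (horizontal) called higher (above 0) or lower (below 0) in B64; bottom, median log2 fold change of B64 over B04 against both B04 libraries (dots) and against B04 B (diamonds). Chromosome 3 stands out with 34.6% higher and a median of 0.18, and chromosome 15 with 24.6% lower and a median of -0.12.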

How the data were processed

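RNA-seq libraries of parental CT26, clone B04 and clone B64 (2 each) were used. The authors aligned reads to mm10 with STAR and estimated expected counts and TPM per gene with RSEM; both deposited columns were used here, expected counts for tests and TPM for marker levels and limma, and FPKM was not used. Symbols and positions came from GENCODE M21 (GRCm38), which matched 53706 of 53801 genes. Expected counts were rounded. DESeq2 1.42.0 (R 4.3.3; size factors, Wald test, group as the only term, Benjamini-Hochberg adjusted p under 0.05) was fitted to all 6 libraries, as the authors also used DESeq2, and B64 was contrasted with B04. The fit was repeated on 5 libraries without B04 A. All adjusted p-values are DESeq2's unless another tool is named, values after ± are standard errors, and normalised counts are counts divided by size factors. edgeR 4.0.16 and limma 3.58.1 served as alternatives. Totals of 19409204 to 23472012 expected counts set the precision. Bounds against a floor of 3 counts per library cover counting error only, and not for a gene read at 3 counts itself. Replicate letters did not pair the samples.

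The clones, gene lists and markers were chosen with earlier results of these data known. Named genes were the 10 largest fragment-matched rises and falls among protein-coding genes with a mean of at least 100 normalised counts, the genes on in 1 clone only, up to 4 fragment-matched members per list and direction with the smallest adjusted p, the 3 called genes per direction with the smallest adjusted p that were not fragment-matched, genes the study names, and up to 3 genes a side in the extreme windows. The markers, the PYHIN and not-called genes given beside them were added as examples after values were seen. The 10 largest rises and falls also had to show no overlap between the clones. Windows held 50 neighbouring genes with a mean of at least 20 normalised counts. Promoter sequences came from a RefSeq table (GRCm38.p6). GC content was not computed. Values of some genes that these rules name, and of 1 list, are not reported here.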

Additional observations from a re-analysis of the deposited data

Results flagged for a closer look

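Of the 219 named genes, 54 passed the test in both clones against the parental line in opposite directions, and also between the clones. Of these, 38 were higher in B64 and 16 lower. Most named genes were chosen for the size or adjusted p of the difference between the clones, which favours this pattern. The share of all tested genes with it was not counted. The comparisons with the parental line share its 2 libraries, so they are not independent of each other; the difference between the clones is the tested quantity, given in brackets as the log2 fold change of B64 over B04. Groups of 2 libraries are too small to single out one library by its gap to the rest.

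Interferon and antigen presentation genes above the parental line in B64 and below it in B04 were Ifi207 (2.78), Bst2 (0.94), Ifi44 (1.45), Usp18 (1.70), Isg15 (1.19), Ifi203 (1.36), Irf7 (1.62), Mndal (1.45), Ifi204 (0.98), Irgm2 (1.06), B2m (0.65) and Ifit1 (1.82). Metabolic, stress and lysosomal genes of the same pattern were Akr1c18 (7.59), Npc1 (0.78), Hmox1 (1.15), Ero1l (1.08), Eno2 (1.34), Aldoa (0.65), Ern1 (0.69), Hsp90b1 (0.47), Gsto1 (0.53) and Psap (0.60). Akr1c18 had 1 and 0 counts in B04, so its bracketed value is fitted over almost no counts and only the bound of at least 32.1-fold applies. Secreted and surface proteins were Thbs2 (3.34), Timp1 (0.82), Itga6 (0.82), Grem1 (1.27), Areg (2.0) and Lgals3 (0.64), and signalling, cell cycle and other genes were Fcho1 (11.21), Ppef1 (5.57), Ptgs2 (1.23), Plk3 (1.31), Cdkn1a (0.54), Plk2 (0.53), Sox9 (1.23), Spry4 (0.95), Junb (1.01) and Nip7 (0.47). Fcho1 had 0 counts in both B04 libraries, and there the bound is at least 145-fold.

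The reverse pattern, above the parental line in B04 and below it in B64, held for the receptor, immune and enzyme genes Il2rg (-6.13), Cfb (-3.59), Hacd4 (-2.60), Tmem176b (-1.36) and Tmem176a (-1.41). Adhesion and matrix genes with it were Loxl4 (-0.59), Itga3 (-0.91), Itgb4 (-1.11), Pcdh18 (-0.83), Ccn1 (-1.11) and Ccn2 (-1.76), and other genes with it were Dnmt1 (-0.48), Fzd2 (-1.20), Rbl1 (-0.47) and Foxp1 (-0.67).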

How the results depend on the processing

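Beside 3118 called genes, fragment-length class as a block gave 1625, limma on log2(TPM + 1) gave 2058 and on log2(TPM + 0.1) 2005, and a further limit of 2-fold left 438. Leaving out 1 library gave 1696 to 2758, the lowest without B64 A. The other settings gave 2230 (adjusted p under 0.01) to 4201 (edgeR). The replicate block gave 2638; correlations of same-letter deviations were -0.05 to 0.11, so letters did not pair samples. Calls higher made up 54.2% of all calls and 47.8% by limma on log2(TPM + 1). Against B04 B, edgeR called 2783 in place of 1753, and its fragment-matched genes numbered 2687, of which 1696 were shared with the 1722. A floor of 1 count left 5 of the 9 genes on in 1 clone. Windows of 100 genes ranged from -0.269 to 0.298. With fragment-length class as a block, B04 B is the only B04 library in the class of both B64 libraries. That setting therefore largely repeats the comparison against B04 B and is not a separate check. The median of checkpoint and immunoregulatory genes was -0.04 with that block and -0.04 without B04 A. Leaving out 1 library gave -0.04 to 0.1, and why the B04 libraries differ here was not tested. Of 218 called named genes 0 reversed under any setting, and edgeR, TMM factors, no independent filtering and a minimum of 10 counts lost 0 calls, while limma lost 20 and 23, fragment-length class as a block 11, the effective-length offset 8, and leaving out 1 library 1 to 12. The 2-fold limit removed 138. Most named genes were chosen for small adjusted p or large folds in the fit of 6 libraries and for passing again without B04 A. Every setting also reused the same libraries. Few lost calls and 0 reversals therefore follow largely from that choice.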
